A study of Mus musculus with 18 samples.

Results

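The comparison is of testis RNA from 21-day-old male mice labelled Plin1 knockout with testis RNA from 21-day-old males labelled wild type. It takes the 3 arrays titled as day 21 knockout and the 3 titled as day 21 wild type, which are 6 of the 18 arrays of the series. The other 12 arrays are 3 of each label at days 40 and 60. RNA of each sample was labelled with Cy3 and hybridised alone to an Agilent mouse array, so every value is a fluorescence signal of a probe. The labels assign day 21 to the meiosis phase and speak of independent experiments at each age, without saying whether an array is 1 animal or a pool. The sources used here do not state how the knockout allele was made, which exons it removes, or the strain. Since an array may be 1 animal or a pool, p-values measure the spread between arrays, which the main fit took from all 18 arrays of the series. Groups of 3 limit their precision.

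Plin1 encodes perilipin 1, a coat protein of lipid droplets that in fat cells holds lipases away from stored triglyceride and, once phosphorylated, lets them in. In the testis, lipid droplets lie mainly in Leydig cells, which turn cholesterol esters into androgens, and in Sertoli cells, which take up the remains of dying germ cells. Spermatogenesis in a young mouse proceeds as a synchronous first wave, in which spermatogonia give rise to spermatocytes, then to round spermatids, and finally to elongating spermatids that replace histones first with transition proteins and then with protamines. Around the third postnatal week round spermatids accumulate and the transcripts of the later spermatid steps begin to appear.

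A level here is the log2 processed signal of a probe minus that array's 75th percentile, so a level of 0 equals the percentile, and a difference of 1 is a doubling of signal. A difference is always the mean of the knockout-labelled arrays minus the mean of the wild-type-labelled arrays. It was tested with limma over 35638 probes, of which 25057 carried a symbol, of 17074 genes in all, and adjusted p-values are by Benjamini-Hochberg over all those probes. The fit took its spread from all 18 arrays. At day 21 the median SD between arrays of a group was 0.21 (wild type) and 0.19 (knockout), against 0.13 to 0.14 in the groups of the later ages, so the pooled spread is narrower than that of the day 21 arrays themselves.

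The probe for the targeted gene went against the labels. The Plin1 level was -2.24, -1.80 and -1.24 in wild-type-labelled replicates 1, 2 and 3. It was 0.02, -0.05 and -0.10 in knockout-labelled replicates 1, 2 and 3. All 3 arrays labelled knockout were brighter than all 3 labelled wild type, and the signal was 3.29-fold higher in them (difference 1.72, SE 0.24, limma adjusted p = 0.00278). The difference was 1.98 without wild type replicate 3 and knockout replicate 2, which stand apart (adjusted p = 0.00102), 1.78 within the slide that holds both labels, and missed the threshold with a variance per age (0.0575). Where the probe lies relative to the deleted part of the gene is not known here, so this probe checks neither the genotype nor the labels. The arrays are called labelled knockout and labelled wild type throughout, and every direction below follows those labels.

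The other arrays gave the same order of labels for Plin1. At day 40 the knockout-labelled arrays lay at -0.22, -0.11 and 0.05 and the wild-type-labelled arrays at -2.40, -2.55 and -2.32 (difference 2.33, limma adjusted p = 0.00509). At day 60 the corresponding levels were 0.17, -0.08 and -0.08 against -3.06, -2.16 and -3.04 (difference 2.75, limma adjusted p = 0.000622). Plin1 was the 1 gene past the threshold of 0.05 at day 40 and also the 1 gene past it at day 60. The Plin1 difference at day 21 was 0.82 smaller than the mean of those at days 40 and 60, and that gap did not pass its own test (limma adjusted p = 0.269).

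The level of the Plin1 probe was set beside 17 measured markers of fat cells, since Plin1 is best known from adipocytes. The mean adipocyte marker level was -1.62, -0.97 and -0.48 in the arrays labelled wild type and -0.64, -2.78 and -1.20 in those labelled knockout at day 21. In the wild-type-labelled arrays of day 21 Plin1 was highest where the markers were highest. In the knockout-labelled arrays it hardly moved, while the marker mean differed by more than 2 log2 units between replicates 1 and 2. Knockout replicate 2 carried the fewest fat transcripts. Fabp4, the fatty acid binding protein of adipocytes, was at -2.61 there and between 1.59 and 3.68 on the other 5 arrays. Car3, an abundant carbonic anhydrase of fat, was at -4.19 against 1.31 to 3.18. Cidec, a droplet fusion protein, was at -4.01 against -0.56 to 1.25. Over all ages the 9 knockout-labelled arrays had Plin1 between -0.22 and 0.17 at marker means from -3.76 to -0.38. The wild-type-labelled arrays of the later ages did not keep the day 21 order. At day 40 Plin1 was highest in their replicate 3 (-2.32) and the marker mean in replicate 1 (-1.73). At day 60 Plin1 was highest in their replicate 2 (-2.16) and the marker mean in replicate 1 (-2.97).

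**Figure D1:**
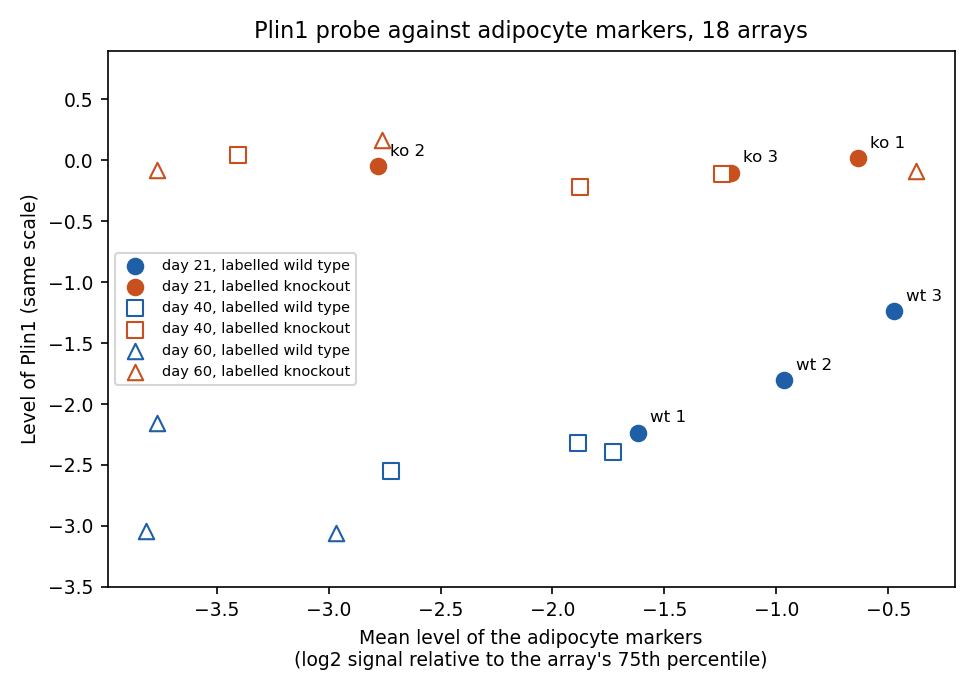
Plin1 level (vertical, log2 signal, 75th percentile of each array set to 0) against the mean level of the 17 adipocyte markers (horizontal, same scale) on all 18 arrays, with day 21 arrays filled and numbered by replicate. The 9 arrays labelled knockout lie in a flat band between -0.22 and 0.17, and the 9 labelled wild type lie between -3.06 and -1.24.

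Wild type replicate 3 and knockout replicate 2 stood apart from the rest of their groups, and main results are given with and without them. Replicate 3 of the wild type had low spermatid transcripts: round and elongating spermatid markers lay 2.32 and 2.84 below the other wild-type-labelled arrays at the median. The 5 genes farthest below on it were Samt4, Cypt15, Cypt12, Cpa5 and H2al1n, of which all but Cpa5 belong to families of near-identical testis genes. The 5 farthest above were Slc38a8, Cpn1, the interferon-induced GTPases Iigp1, at -1.44 against -4.04 and -3.83, and Tgtp1, at -1.46 against -4.02 and -4.05, and the chemokine Ccl8 at -1.64 against -5.27 and -4.34 in replicates 1 and 2. Replicate 2 of the knockout had a raised dim end: the median processed signal of its negative control spots was 11.1, against 2.30 to 3.57 on the other day 21 arrays. With the probes ordered by signal into 5 equal groups, the dimmest group was 1.43 higher there than on knockout replicates 1 and 3 at the median, and the brightest 0.01 higher. Among the genes farthest above the other knockout-labelled arrays on it, Pou3f2, Ferd3l, Slc39a5 and Podn were dim genes, at -2.74 to -2.26 there and at or below -6.01 on the other 2. The 75th percentile of signal lay between 2466 and 3180 over the 6 arrays, and 84.8% to 90.6% of their spots were well above background. The 3 wild-type-labelled arrays and knockout replicate 1 shared a slide, and knockout replicates 2 and 3 lay on another, so slide and label are partly confounded.

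**Figure D2:**
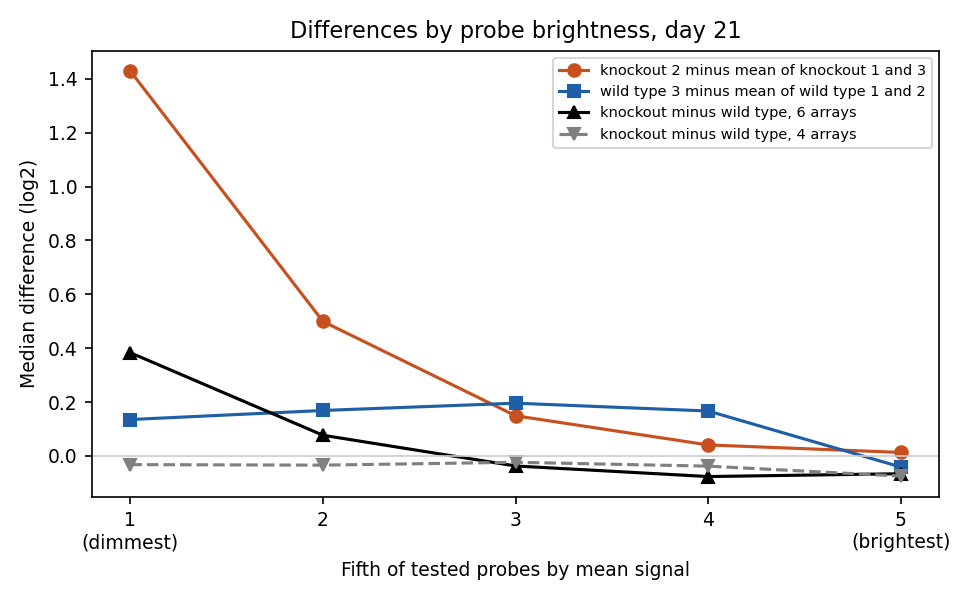
Median log2 difference (vertical) in 5 equal groups of the tested probes ordered by mean signal (horizontal). The curve for knockout replicate 2 against the other knockout-labelled arrays falls from 1.43 to 0.01, the difference between the groups is 0.38 in the dimmest group over 6 arrays, and it is -0.03 there over the 4 arrays left when both arrays that stand apart are removed.

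Among the 17074 genes, 256 rose (1.50%) and 1 fell (0.00586%) in the knockout-labelled arrays at an adjusted p under 0.05. Counted as probes, 481 rose (1.35%) and 7 fell (0.0196%). The probes that rose were mostly large changes: their median difference was 1.94, and 432 of them differed at least 2-fold. All 3 knockout-labelled arrays lay above all 3 wild-type-labelled arrays for each of the 256 genes, an order that their choice from these same arrays favours. Over all genes tested that order held for 1161 (6.80%), and the opposite order held for 1689 (9.89%). The calls rest on the spread pooled with the later ages. Fitted to the 6 day 21 arrays alone, limma called 0 probes at the adjusted threshold. In that fit 1376 of all probes had an unadjusted p under 0.05. So did 481 of the 481, which were chosen by their difference in these same arrays, so this adds no support. When the fit gave each age its own variance, 95 genes rose (0.556%).

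Leaving out both arrays that stand apart raised the number of genes called higher to 340 (1.99%), with 1 lower (0.00586%, Wnk2, named after its value was seen). Of the 481 probes that rose, 370 were still called. Without wild type replicate 3 alone 202 genes rose (1.18%), and without knockout replicate 2 alone 243 rose (1.42%). With the slide as a block, 2 probes passed, 1 in each direction. That fit rests on knockout replicate 1 against the 3 wild-type-labelled arrays of its slide. There the 481 probes differed by 1.73 at the median, in a direction that their choice with the same arrays fixes. The near absence of lower genes held for these fits and not for all: 323 genes were higher and 138 lower without knockout replicate 1, 534 and 63 without wild type replicate 2, 439 and 12 without wild type replicate 1, and 1021 and 446 with the slide as a random block.

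**Figure D3:**
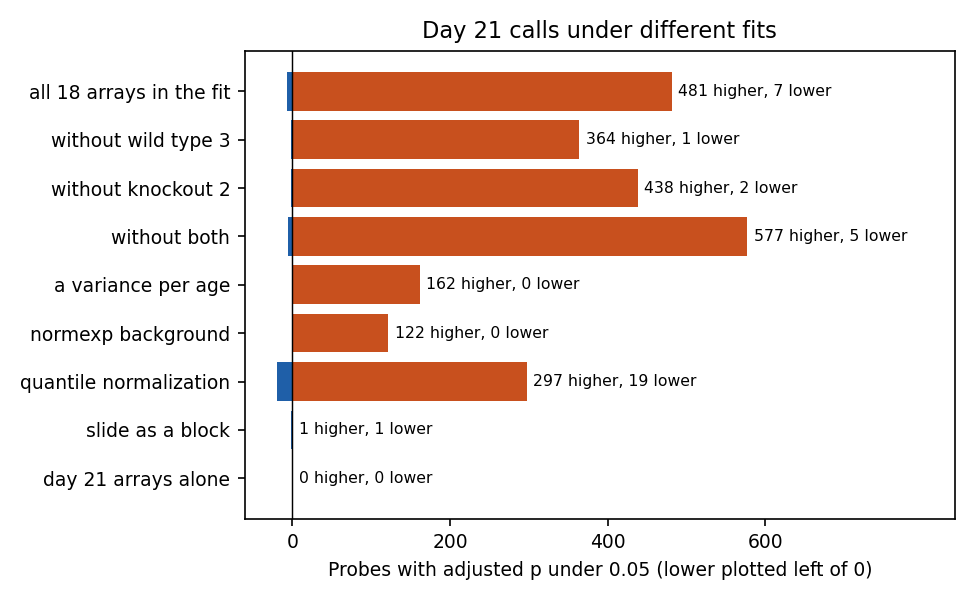
Number of probes with an adjusted p under 0.05 (horizontal, higher in knockout-labelled arrays to the right of 0, lower to the left) under 9 fits. The fit to all arrays gives 481 higher and 7 lower, removing both arrays that stand apart gives 577 and 5, and the slide as a block and the day 21 arrays alone give 1 and 1, and 0 and 0.

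Of 28 measured markers of elongating spermatids 6 rose in the knockout-labelled arrays, 22 did not pass and none fell, against 1.50% of all genes that rose: the protamines Prm1 and Prm2, the transition protein Tnp2, Fscn3, Spem1 and Spatc1. The groups did not overlap for 12 of the 28, all higher, against 6.80% of all genes. The median difference over the list was 1.37, against -0.04 over all genes, and fell to 0.43 without wild type replicate 3 and to 0.62 without both arrays that stand apart. Without both, 11 members rose, adding Tnp1, Spata3, Gsg1, Lelp1 and Spata18. In bulk tissue, more cells of a type and more RNA per cell cannot be told apart.

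The protamines, which pack the DNA of the sperm head, had the largest differences of the list. Prm2 was at 1.77, 3.64 and -0.23 in wild-type-labelled replicates 1, 2 and 3 and at 5.69, 4.16 and 6.0 in the knockout-labelled ones. The groups did not overlap, and the lowest knockout-labelled array, replicate 2, was the one with the raised dim end. The signal was 11.8-fold higher (difference 3.56, SE 0.68, limma adjusted p = 0.0163), and the difference was 3.14 without both arrays that stand apart (adjusted p = 0.000953). Prm1 had the same order of arrays, at 2.54, 3.93 and 0.19 against 5.95, 4.55 and 6.25 (difference 3.37, limma adjusted p = 0.0183). Within the shared slide, knockout replicate 1 lay 3.97 (Prm2) and 3.74 (Prm1) above the mean of the wild-type-labelled arrays. After normexp background correction neither passed, with limma adjusted p = 0.066 for Prm2 and 0.071 for Prm1. Nor did they pass without knockout replicate 3, at differences of 3.20 and 3.03.

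Tnp2, which takes the place of histones before the protamines, lay at -1.27, -0.66 and -3.15 in the arrays labelled wild type and 1.54, -0.01 and 1.91 in those labelled knockout (difference 2.84, limma adjusted p = 0.0141). Tnp1, the more abundant transition protein, lay at 1.95, 2.15 and -0.85 against 3.92, 2.64 and 4.43. Its groups did not overlap, and it missed the threshold over all arrays (difference 2.58, limma adjusted p = 0.0534) and passed it without both arrays that stand apart (2.12, adjusted p = 0.000223). Fscn3, the testis fascin that bundles actin in the spermatid head, was at -2.87, -2.04 and -3.72 against -0.01, -0.98 and 0.48. Its difference of 2.71 passed with limma over all arrays (adjusted p = 0.00225), with a variance per age (0.0139) and without both arrays (2.69, 0.000225). Spem1, needed for shedding of spermatid cytoplasm, differed by 2.77 (limma adjusted p = 0.0267), and Spatc1, a centrosomal protein, by 1.50 (0.00523). Spem1 missed the threshold with a variance per age (limma adjusted p = 0.0671) and without knockout replicate 1 (difference 2.65) or 3 (2.41). With normexp Fscn3 passed (adjusted p = 0.0329), while Tnp2 and Spem1 (both 0.0624) and Spatc1 (0.0727) did not.

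In other markers of the same list the groups overlapped, as they did in 16 of the 28. Odf2, a sperm tail fibre protein, was between 6.65 and 7.17 on all 6 arrays, and Hook1 between 1.53 and 1.80. Akap4, the main protein of the fibrous sheath of the tail, was at 2.36, 1.61 and -1.18 in the arrays labelled wild type and 2.55, 1.75 and 2.62 in those labelled knockout. Its groups overlapped, since wild type replicate 1 lay above knockout replicate 2, and its difference of 1.38 did not pass (limma adjusted p = 0.3). On 26 of the 28 probes of the list wild type replicate 3 was the lowest of the 6 arrays, and on 21 knockout replicate 3 was the highest. Over all genes those shares were 3692 and 1197 of 17074.

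Prm1, Prm2 and Tnp2 lie in a row on mouse chromosome 16 with Prm3, which sits between Tnp2 and Prm2 and whose difference is not given here. Prm1, Prm2 and Tnp2 all rose, so the bases ahead of their starts are shown to set them side by side. Each run is the 250 bases before the RefSeq transcription start (assembly GRCm38.p6, minus strand, written 5′ to 3′ as transcribed). The regions are chr16:10796824-10797073 for Prm1, chr16:10792106-10792355 for Prm2 and chr16:10788656-10788905 for Tnp2, and capitals mark the letters TATA found 40 to 20 bases before the start.
Prm1: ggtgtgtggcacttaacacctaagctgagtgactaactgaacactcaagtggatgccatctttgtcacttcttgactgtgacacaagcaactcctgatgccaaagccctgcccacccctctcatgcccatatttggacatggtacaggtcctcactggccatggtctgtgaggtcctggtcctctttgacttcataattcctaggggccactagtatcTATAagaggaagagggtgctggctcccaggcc
Prm2: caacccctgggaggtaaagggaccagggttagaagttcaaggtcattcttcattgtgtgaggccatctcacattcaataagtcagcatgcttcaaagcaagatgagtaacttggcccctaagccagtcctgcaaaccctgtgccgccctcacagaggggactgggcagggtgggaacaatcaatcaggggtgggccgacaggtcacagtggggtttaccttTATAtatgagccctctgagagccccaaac
Tnp2: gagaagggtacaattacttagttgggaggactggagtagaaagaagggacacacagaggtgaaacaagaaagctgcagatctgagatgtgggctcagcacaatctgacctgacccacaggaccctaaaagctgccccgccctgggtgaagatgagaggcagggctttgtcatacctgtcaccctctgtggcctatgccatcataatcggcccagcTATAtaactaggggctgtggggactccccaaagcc
The marked letters begin at positions -32, -29 and -35 from the start in Prm1, Prm2 and Tnp2. TATA in that window, on the transcribed strand only, was found in 17 of the 202 genes that rose and had a promoter in the table (8.42%). The share was 6.04% of the 13571 tested genes with one and 6.38% of all 27025 genes with one. A gene with several promoters was counted if any of them held the letters. The full cyclic AMP response element TGACGTCA, a sequence bound by the spermatid activator CREM, was searched on both strands over 250 bases before to 50 after the start. It was found in 2 of the 202 (0.990%) and 2.98% of the tested genes. Its shorter form TGACG, which the full element contains, was in 45 of the 202 (22.3%) and 30.2% of the tested genes. In the elongating spermatid list 0 of 27 genes with a promoter held the full element and 5 the shorter form (18.5%). In the round spermatid list 1 of 26 held the full element (3.85%) and 11 the shorter form (42.3%). These are counts of exact letters in a fixed window, so other forms of the element were not counted. The Prm1 bases above hold TGACTTCA, which neither search finds. Absence of the searched letters therefore does not show that a promoter lacks a site for CREM.

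Round spermatid markers, which act in the acrosome and in calcium signalling, mostly separated wild type replicate 3 from the other 5 arrays. Their mean level was 2.74, 2.62 and 0.87 in the arrays labelled wild type and 3.0, 2.72 and 2.95 in those labelled knockout. Of 29 measured members 1 rose, against 1.50% of all genes, and wild type replicate 3 was the lowest array on 26. The median difference of 1.04 fell to 0.18 without that array. Acrv1, an acrosomal protein, shows the pattern at 2.68, 2.10 and -0.72 against 2.60, 2.32 and 2.85 (difference 1.24, limma adjusted p = 0.323). Crem itself was between 3.25 and 3.41 on 5 arrays and at 2.66 on wild type replicate 3. The member that rose was Tssk6, a spermatid kinase needed for sperm chromatin condensation, at -1.48, -1.52 and -1.99 against -0.40, -1.24 and -0.25 (difference 1.04, limma adjusted p = 0.0439). It did not pass without wild type replicate 3 (0.87, limma adjusted p = 0.173), without knockout replicate 1 (0.92) or 3 (0.85), or with a variance per age (adjusted p = 0.287). It passed without knockout replicate 2 (1.34, limma adjusted p = 0.00319) and without both arrays that stand apart (1.18, 0.00408).

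**Figure D4:**
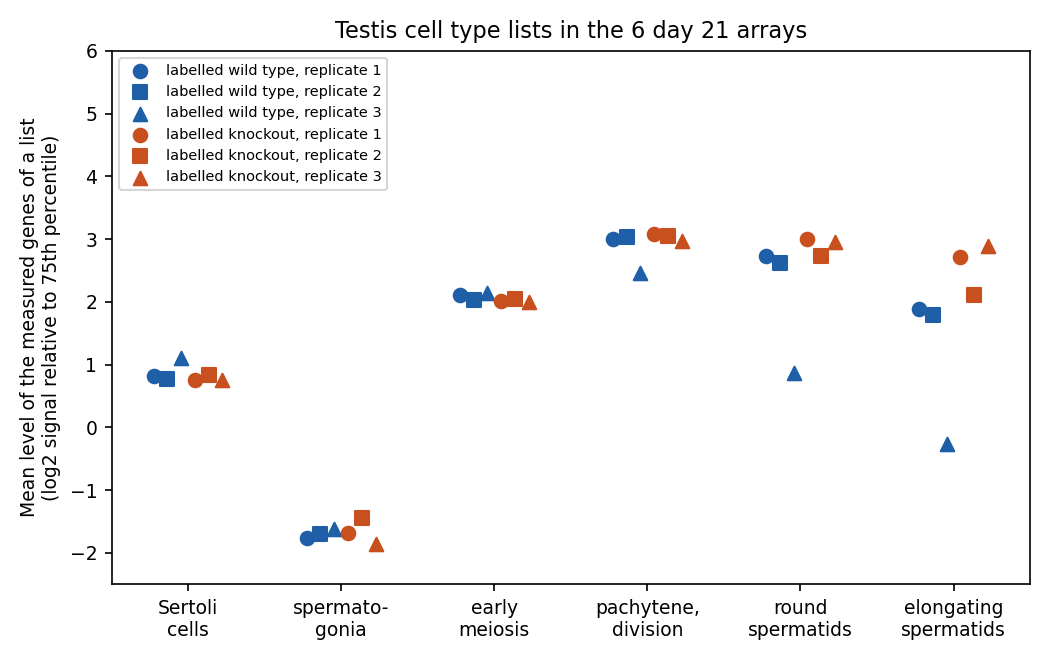
Mean level of the measured genes of 6 cell type lists (vertical, log2 signal, 75th percentile of each array set to 0) on the 6 day 21 arrays, with lists in the order of spermatogenesis after Sertoli cells. The arrays lie close together up to early meiosis, wild type replicate 3 is low at 0.87 for round spermatids and -0.27 for elongating spermatids, and the 3 knockout-labelled arrays are at 2.72, 2.11 and 2.89 for elongating spermatids.

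Earlier germ cells and the somatic cells of the tubule showed few calls. Of 16 spermatogonial markers and 19 markers of early meiosis none passed, with median differences of -0.03 and -0.09. Among them Dmc1, the meiotic recombinase, was at -1.19, -1.22 and -0.89 against -1.54, -1.56 and -1.69 (difference -0.50, limma adjusted p = 0.104). Of 22 markers of pachytene spermatocytes and meiotic division 1 rose, against 1.50% of all genes, with a list median of -0.03. It was Calr3, a testis chaperone of the calreticulin family, at -0.30, -0.46 and -1.99 against 1.17, 0.28 and 1.60 (difference 1.93, limma adjusted p = 0.0221). Calr3 missed the threshold without wild type replicate 3 (1.39, adjusted p = 0.0502), with a variance per age (0.0983), and without knockout replicate 3 (difference 1.64). It passed without knockout replicate 2 (2.30, limma adjusted p = 0.00797) and without both arrays that stand apart (1.76, 0.000947). The mean of this list was also low in wild type replicate 3, at 2.46 against 2.97 to 3.07 on the other day 21 arrays. That array was the lowest on 14 of the 22, and on 3692 of all 17074 genes. None of 24 Sertoli cell markers passed, 20 lay below 0, as 9584 of all 17074 genes did, and 17 were highest in wild type replicate 3, the array with the fewest spermatid transcripts. That array was the highest for 5961 of all genes. The follicle-stimulating hormone receptor Fshr (difference -0.37, limma adjusted p = 0.137) and the androgen carrier Shbg (-0.46, 0.182) had the smallest p of that list.

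The 12 genes with the largest differences among those called both with and without the arrays that stand apart, well above background on all 6 arrays, included the protamines and several transcripts of little known function. The uncharacterised transcript 1700016C15Rik was at -4.83, -3.33 and -7.51 in the arrays labelled wild type and -1.05, -2.27 and -0.48 in those labelled knockout, a 15.6-fold higher signal (difference 3.96, SE 0.73, limma adjusted p = 0.014). Nudt16l2, of the nudix hydrolase family, was at -5.95, -4.23 and -6.58 against -2.01, -2.17 and -1.56 (3.67, SE 0.42, adjusted p = 0.00103). Another uncharacterised transcript, 1700009J07Rik, was at -6.56, -5.21 and -7.59 against -2.90, -3.09 and -2.46 (3.63, SE 0.41, adjusted p = 0.00103). In these 3 genes the lowest wild-type-labelled array was again replicate 3 and the highest knockout-labelled array replicate 3. The differences without both arrays that stand apart were 3.32, 3.31 and 3.20.

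Hemgn, named for its role in blood cell precursors, was the single red blood cell marker of 9 that rose, against 1.50% of all genes. It was at -5.56, -3.54 and -6.79 in the arrays labelled wild type and -1.23, -2.11 and -0.85 in those labelled knockout (difference 3.90, limma adjusted p = 0.00434). The globins had another order of arrays: Hba-a1 was highest in wild type replicate 3 at 5.80, lowest in knockout replicate 2 at 2.66, and between 3.85 and 4.98 on the others. The mean Hemgn level in arrays labelled wild type was -5.30 at day 21, 2.67 at day 40 and 2.68 at day 60. The mean of the red blood cell list in arrays of that label was -1.41 at day 40 and -1.07 at day 60. Oxct2a, a testis enzyme of ketone body use whose near-identical copy Oxct2b may share its probe, differed by 3.53 (limma adjusted p = 0.0116). Ttc24 differed by 3.65, the cystatin-like Cstl1 by 3.53, Fam71b by 3.49, Lrrd1 by 3.35 and 1700042G07Rik by 3.34, with adjusted p-values between 0.00167 (Lrrd1) and 0.0153 (Fam71b). Each of the 12 passed with limma under a variance per age as well; without knockout replicate 3, Fam71b (difference 3.17) and the protamines did not.

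**Figure D5:**
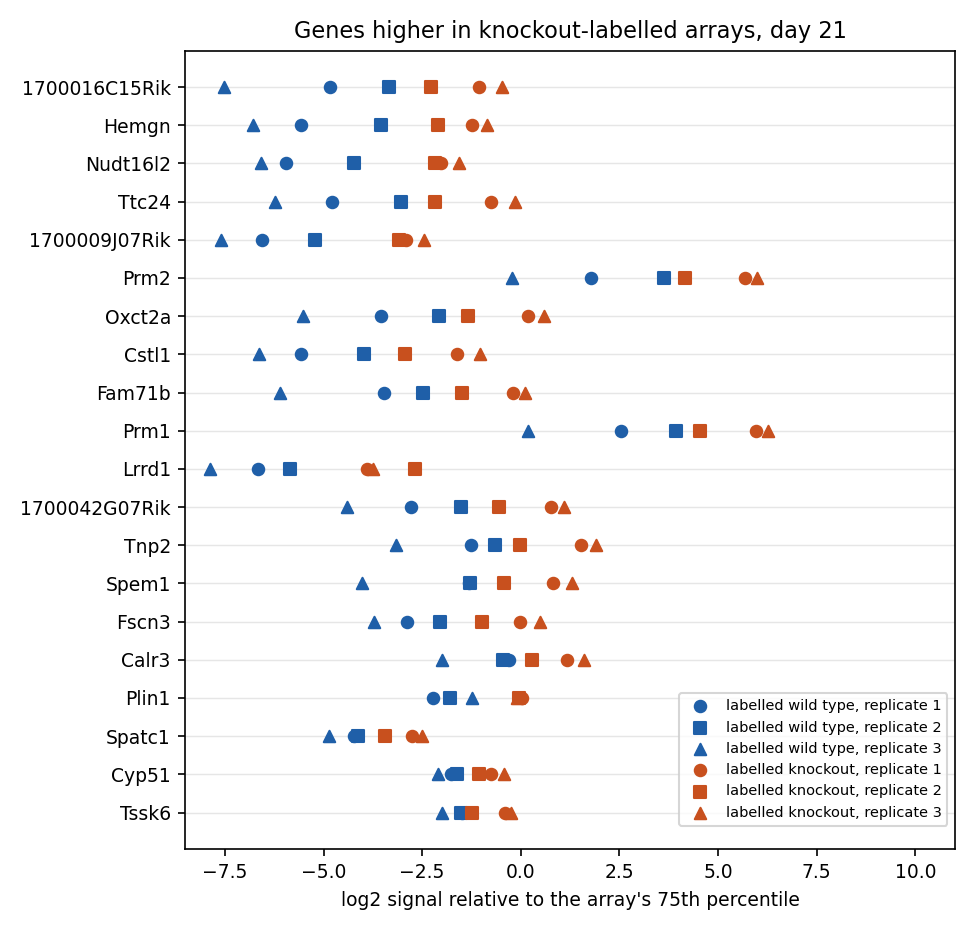
Levels (horizontal, log2 signal, 75th percentile of each array set to 0) of 20 genes that rose, ordered by the size of their difference, on each of the 6 day 21 arrays. Every knockout-labelled point lies to the right of every wild-type-labelled point of the same gene, an order that the choice of these genes from the same arrays sets or favours. Wild type replicate 3 is the leftmost in all but Plin1.

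Of the genes whose call was lost when wild type replicate 3 was left out, the 6 with the largest differences are given here. Their differences stayed within 1 log2 unit of the values over all arrays. Dkk4, an inhibitor of Wnt signalling, was not well above background on any wild-type-labelled array and was on all 3 knockout-labelled arrays. Its levels were -7.74, -4.18 and -6.92 there, so the array with the raised dim end was the highest, and the signal was at least 3.32-fold higher. Its difference was 3.38 over all arrays, 2.99 without wild type replicate 3 (limma adjusted p = 0.0857) and 1.94 without both arrays that stand apart, where it passed (0.0123). Mpig6b, a platelet receptor, went from 2.45 to 2.35 without wild type replicate 3 (limma adjusted p = 0.07) and passed without both (1.58, 0.0138). Veph1 went from 2.39 to 2.05 (0.0557) and likewise passed without both (1.46, limma adjusted p = 0.031). The other 3 passed in neither fit. They were 9930111J21Rik2, which has a close paralogue (2.57 to 2.28, limma adjusted p = 0.0916 without wild type replicate 3), the liver fatty acid binding protein Fabp1 (2.51 to 1.97, 0.146) and Prr9 (2.37 to 1.57, 0.0521). In all 6 of these genes knockout replicate 2 was the highest of the 6 arrays, while it was the lowest knockout-labelled array for both protamines. Well above background on the wild-type-labelled arrays was 1 of 3 for 9930111J21Rik2 and 2 of 3 for Mpig6b, Veph1 and Prr9.

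Conversely, 129 genes passed without both arrays and not over all arrays, some of which, such as Spata3, also passed with 1 array left out. With the smallest p among them, besides Tnp1 and Spata3, were Dnajb8, a chaperone of the testis (1.69, limma adjusted p = 0.000516 without both, 0.0914 with all arrays), 4930448K20Rik (2.10, 0.000516), 1700029H14Rik (1.22, 0.0006) and 4930503B20Rik (1.52, 0.000861). Dnajb8 was at 0.02, -0.42 and -3.24 in the arrays labelled wild type and 1.39, 0.26 and 1.58 in those labelled knockout. On 116 of the 129 genes wild type replicate 3 was the lowest array.

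Rbbp8, which trims DNA ends for recombination, was the 1 gene that fell. It was at 2.34, 2.21 and 2.26 in the arrays labelled wild type and 1.97, 1.86 and 1.87 in those labelled knockout, a 1.29-fold lower signal (difference -0.37, SE 0.08, limma adjusted p = 0.0259). The groups were tight and did not overlap. The call was lost without wild type replicate 3 (limma adjusted p = 0.0517), without knockout replicate 2 (0.0902), without both (0.105) and with a variance per age (0.345), at differences between -0.38 and -0.35 in the fits without wild type replicate 3 and without both. Next by p were Med11, a subunit of Mediator (-0.37, limma adjusted p = 0.0509), Sdhaf1, which helps assemble respiratory complex II (-0.40, 0.0526), the X-linked Magea3, of a family of near-identical genes (-0.43, 0.0589), the late endosomal GTPase Rab7b (-0.70, 0.0647) and the endothelial receptor Robo4 (-0.76, 0.0648). All 5 had the 3 knockout-labelled arrays below the 3 wild-type-labelled arrays, which 9.89% of all genes did.

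Besides Plin1, 12 genes of the lipid droplet coat were measured and none passed. Their differences ran from -0.90 to 1.73, the highest in a gene not named here. Plin2, the perilipin of most non-adipose cells, was at 0.88, 0.85 and 0.38 in the arrays labelled wild type and 1.26, 0.97 and 1.31 in those labelled knockout. Its groups did not overlap, and the difference of 0.48 did not pass (SE 0.15, limma adjusted p = 0.154). Plin3 differed by -0.06 (SE 0.12) and Plin5, the perilipin of oxidative tissue, by 0.35 (SE 0.17). Plin4, an adipocyte perilipin, was at -2.73 in knockout replicate 2, the array with few fat transcripts, and between -1.02 and 0.33 on the others (difference -0.74, SE 0.83). Removing both arrays turned that to 0.42 (limma adjusted p = 0.932).

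None of 14 genes of lipolysis passed, and their median difference was -0.06 over all arrays and 0.05 without both that stand apart. Pnpla2, the first lipase of triglyceride breakdown, lay at 4.92, 4.71 and 4.55 against 4.58, 4.56 and 4.51 (difference -0.17, SE 0.09, limma adjusted p = 0.374). Its inhibitor G0s2 differed by 0.26 (0.427), and Lipe, the hormone-sensitive lipase that also cleaves cholesterol esters in steroid-making cells, by 0.12 (SE 0.14, 0.676). Of 11 genes of triglyceride and cholesteryl ester synthesis none passed over all arrays. Agpat2, an acyltransferase of triglyceride synthesis, was at -3.37, -2.85 and -2.73 against -1.77, -2.64 and -1.97 (difference 0.85, limma adjusted p = 0.0761) and passed without both arrays that stand apart (1.23, 0.00478). Soat1, which esterifies cholesterol, differed by -0.40 (0.245).

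Genes of steroid synthesis did not pass over all arrays, 19 measured with a median difference of 0.04, nor did 14 Leydig cell markers with a median of 0.16. Without both arrays that stand apart these medians were 0.14 and 0.39, and the Leydig median was -0.02 with quantile normalization. Cyp17a1, the enzyme that commits pregnenolone and progesterone to androgens, was at -0.55, -1.06 and -0.17 in the arrays labelled wild type and 0.34, -0.53 and 0.68 in those labelled knockout. The groups overlapped through knockout replicate 2 and wild type replicate 3 (difference 0.75, SE 0.32, limma adjusted p = 0.277). Without both arrays the difference was 1.31 and just passed (adjusted p = 0.0496). Cyp11a1, which cleaves the cholesterol side chain, differed by 0.67 over all arrays (0.273) and by 1.11 without both (0.0985). Star, the mitochondrial cholesterol carrier, differed by -0.11 (SE 0.30), Hsd3b1 by -0.02 (SE 0.20), Hsd17b3 by 0.19 (SE 0.43) and Por, the electron donor of these enzymes, by -0.34 (SE 0.11, limma adjusted p = 0.189). Knockout replicate 3 was the highest array for 8 of the 14 Leydig cell markers.

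Cyp51 was the 1 of 24 genes of cholesterol synthesis and uptake that rose, against 1.50% of all genes. It encodes lanosterol demethylase, a step of sterol synthesis that is also strongly used in male germ cells. It lay at -1.78, -1.62 and -2.10 in the arrays labelled wild type and -0.75, -1.07 and -0.42 in those labelled knockout, with no overlap (difference 1.09, SE 0.19, limma adjusted p = 0.0108). It passed without both arrays that stand apart (1.11, 0.0113) and not with a variance per age (0.168). Its arrays had the same order as those of both protamines, and the list's median difference was -0.02 (0.02 without both). Of 19 genes of fatty acid oxidation and PPAR targets none passed (median -0.02, and 0.16 without both); Pparg, the regulator of fat cell genes, differed by -0.32 (limma adjusted p = 0.262) and Ppard by 0.66 (0.378).

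None of the 17 adipocyte markers passed. Their median difference was -0.50 over all arrays, 0.27 without both that stand apart, and 0.10 without knockout replicate 2 alone, which was the lowest array on 10 of them. Beyond Fabp4, Car3 and Cidec, that array was low in Cfd, the complement factor adipsin, at -3.42 against 1.40 to 2.66, and in Cyp2e1 at -5.05 against -1.61 to 0.16. Cidea, a droplet fusion protein of brown fat, differed by -0.30 (limma adjusted p = 0.417).

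Markers of other cells that a testis sample can hold gave no call apart from Hemgn. Median differences were -0.09 for 14 peritubular and smooth muscle markers (Myl9 -0.32, limma adjusted p = 0.182, and Myh11 -0.28, 0.288), 0.06 for 17 skeletal muscle markers and 0.03 for 18 of macrophages. They were -0.02 for 13 endothelial, 0.17 for 14 mesothelial and -0.15 for 9 red blood cell markers. Several of these signs turned with 1 array: without wild type replicate 3 the median was -0.13 for mesothelial, 0.19 for red blood cell and 0.09 for endothelial markers, and without knockout replicate 2 it was -0.09 for skeletal muscle. Of these, the skeletal muscle genes Casq1 (1.46, limma adjusted p = 0.141) and Actn2 (0.50, 0.204) were highest in knockout replicate 2, as 12 of the 17 in that list were. Aif1, listed as a macrophage gene, was lowest in wild type replicate 3 like the spermatid markers, at 2.82, 2.61 and 0.25 against 3.32, 2.89 and 3.59 (1.37, limma adjusted p = 0.197). Next to Aif1 among macrophage genes was Lyz2 (0.48, limma adjusted p = 0.303). Robo4, given above, had the smallest p of the endothelial list, followed by Tek (0.32, 0.34), and Upk1b (0.86, 0.298) and Krt8 (0.34, 0.589) those of the mesothelial list.

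The 12 epididymal and efferent duct markers had a median difference of 0.62, which was -0.12 without knockout replicate 2. Adam7, an epididymal membrane protein, was not well above background on any wild-type-labelled array, and its signal was at least 3.40-fold higher in the knockout-labelled ones (limma adjusted p = 0.0719). The highest of these was replicate 2 at -4.25, against -7.22 and -7.27. Cst8, a cystatin of epididymis and spermatids, differed by 1.42 (limma adjusted p = 0.125) and passed without both arrays (1.13, 0.0318).

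Neither 18 interferon response genes, nor 21 immediate-early and stress genes, nor 23 nuclear genes of the mitochondrial respiratory chain held a call, with median differences of -0.12, -0.25 and -0.11. The interferon median was 0.04 without wild type replicate 3, and with normexp, which put the median of all genes at 0.11, the first 2 lists were at 0.63 and 0.19. The interferon signalling gene Stat2 (-0.42, limma adjusted p = 0.117) lay lower in all 3 knockout-labelled arrays than in any labelled wild type. Zfp36 (-0.35, limma adjusted p = 0.202) and Junb (-0.38, 0.225) led the immediate-early list, and Cox4i1 of the respiratory chain differed by -0.18 (0.393). Wild type replicate 3 was the highest array on 10 of the 18 interferon genes and on 15 of the 21 immediate-early genes, against the 5961 of all 17074 given above.

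The genes that rose at day 21 were brighter at the later ages at the median, with exceptions such as Plin1 and 9930111J21Rik2. The median level of the 256 genes was -4.69 in arrays labelled wild type and -2.81 in those labelled knockout at day 21, 0.24 and 0.16 at day 40, and 0.49 and 0.83 at day 60. Over all genes the median level was between -0.73 and -0.68 in each of the 6 groups. At day 40, in arrays that share none with day 21, 85 of the 256 differed in the same direction (33.2%, against 58.6% of all genes), with a median of -0.08. At day 60 that held for 221 (86.3%, against 52.4% of all genes), with a median of 0.31. Of the 256, Plin1 alone passed at either later age with limma, and 3 had an unadjusted p under 0.05 at day 40 and 23 at day 60.

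The change of the difference between ages was tested directly. For 57 genes (0.334%) the difference at day 21 exceeded the mean of those at days 40 and 60 at an adjusted p under 0.05, and for 8 genes it lay below that mean (0.0469%). Fscn3 differed by 2.71 at day 21, 0.25 at day 40 and -0.01 at day 60, so that its difference was 2.59 larger at day 21 (limma adjusted p = 0.0322). Prm1 and Prm2 differed by 0.02 and 0.03 at day 40 and by -0.03 and -0.00 at day 60, and the test of the change missed the threshold for both (adjusted p = 0.0993 and 0.0943). At those ages Prm1 lay between 7.61 and 8.11 on all 12 arrays, where it is among the brightest probes. The test of the change shares the day 21 arrays with the comparison above, the ones that stand apart included, and without these the limma count rose from 104 to 379 probes.

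Of the 256 genes that rose, 2 lay on the X chromosome (0.78%), against 3.57% of all genes tested. Symbols of uncharacterised transcripts that contain Rik made up 10.5% of them and 2.74% of all genes. A further 160 of the 481 probes that rose carried no symbol in the gene table used and are counted here without a name.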

How the data were processed

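Feature Extraction quantified each array; its version is 10.7.3.1 per the file headers and 9.1 per the submitters' processing notes. The deposited processed signal is an intensity on a linear scale, with background subtracted and spatial trends removed per the file headers, and not scaled between arrays. Median signal and background median intensities as deposited by the authors entered the normexp alternative only, because the planned mean signal is not a column of the files.

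Control spots and outlier spots (72 to 128 per day 21 array) were left out, spots of a probe were averaged, and log2 signals were scaled by the 75th percentile of each array's non-control spots. Of 41174 probes, 35638 were tested, those well above background throughout at least 1 group of 3 arrays. Genes were named by RefSeq accession, which 14286 probes could not be, and the brightest probe stood for a gene. Differences were fitted with limma 3.58.1 (R 4.3.3, lmFit and eBayes, tests in both directions) on the 6 group means of 18 arrays. A check on simulated data came first. It gave a probe the same spread in every group, so it does not cover the wider spread of the day 21 arrays. Differences between ages used the same limma fit. Fold bounds compare the bright group with the lowest signal well above background on each dim array.

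The 24 gene lists, the rules for naming genes and the members were chosen with earlier results of these data known. Named were the perilipins; the 12 largest rises called with and without the arrays that stand apart, on all 6 arrays above background without overlap; the 6 lower genes with the smallest p; the 6 largest calls lost without wild type replicate 3; the 6 smallest p gained without both arrays; of each list the called members, at most 6, or else the 2 smallest p; 8 lipid and steroid genes; and the 5 highest and 5 lowest genes of each array that stands apart. Wnk2, Acrv1, Crem, Odf2, Hook1, Akap4, Hba-a1 and the members of the elongating list gained without both arrays were added after their values were seen. Some genes that these rules name are not reported here. Alternatives changed the arrays, weights, blocks, background, scaling and filters.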

Additional observations from a re-analysis of the deposited data

Results flagged for a closer look

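For 7 named genes the difference between labels at day 21 departed from the mean of the differences at days 40 and 60 in the direct test of that change (limma, adjusted p under 0.05). The day 21 excess was 3.70 for Hemgn (adjusted p = 0.0475), 3.68 for Nudt16l2 (0.0158), 3.60 for 1700009J07Rik (0.0158), 3.45 for Lrrd1 (0.023) and 2.59 for Fscn3 (0.0322). It was 3.38 for 9930111J21Rik2 (0.0409), which was well above background on 1 of the 3 wild-type-labelled arrays at day 21. Magea3 departed the other way, by -0.66 (0.0447), with a difference of -0.43 at day 21, 0.13 at day 40 and 0.34 at day 60. Under normexp background correction none of these tests passed, since that setting called 0 probes for the change between ages with limma, with 2077 at an unadjusted p under 0.05.

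The negative control spots, which no comparison uses, gave a signal on day 21 knockout replicate 2 that the other arrays lacked: a median processed signal of 11.1, against 2.30 to 3.57 on the other 17 arrays. The raw median of these spots was 92 there and 39.5 to 57 elsewhere, and the second highest was knockout replicate 3 of the same slide.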

How the results depend on the processing

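Over all arrays 488 probes passed at day 21. Fewer passed with the day 21 arrays alone (0; 1376 at an unadjusted p under 0.05), a variance per age (162), the slide as a fixed block (2), normexp (122), quantile normalization (316) and, chosen after seeing the data, the day 21 arrays alone without both that stand apart (0; 1843 unadjusted). More passed with the slide as a random block (2931), for which the correlation within slides was estimated at -0.226. Leaving out 1 array gave 365 to 1031, the lowest without wild type replicate 3 and the highest without wild type replicate 2; without knockout replicate 1, 960 passed and 73.3% of them were higher. Of the 481 probes higher over all arrays, 313 were still called without wild type replicate 3, 376 without knockout replicate 2 and 326 without knockout replicate 3. The median difference of all probes moved from -0.00 to 0.36 with normexp and to -0.10 with quantile normalization. Why the counts moved was not tested. Dim probes limit the comparison: 46 of the 481 were not well above background on any wild-type-labelled array.

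For the change between ages, 104 probes passed over all arrays, 31 with a variance per age, 1 with the slide as a fixed block, 0 with normexp, 43 with quantile normalization, 33 for probes above background on all 6 arrays and 13 with an offset of 50 (chosen after seeing the data). More passed with a weight per array (343), without both arrays that stand apart (379) and with the slide as a random block (795). Leaving out 1 array gave 55 to 676.

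Same-numbered day 21 arrays correlated at 0.16, -0.01 and -0.05 in their deviations from the group means. So few pairs cannot decide whether replicate numbers pair the arrays, and the main fit treated them as unpaired. With the replicate block 228 probes passed at day 21 and 60 for the change between ages. Of the 27 named genes that passed, 7 still did with the block, 16 with a variance per age, 13 with normexp and 0 with the slide as a fixed block. None of these 27 changed direction in the 21 alternatives.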
